A study of Mus musculus with 2 samples.

Results

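Clustered EP300 loci of melan-a mouse melanocytes are described here: places where at least 3 sites of EP300 binding lie side by side along a chromosome, with no more than 20000 bp between the edges of neighbours. EP300 (p300) was mapped by chromatin immunoprecipitation and sequencing (ChIP-seq) with an anti-p300 antibody, and a second ChIP-seq map gave histone H3 monomethylated at lysine 4 (H3K4me1). The melan-a line consists of immortalized melanocytes of strain C57BL/6 Ink4a -/-, so all cells lack the cell cycle inhibitor Ink4a, and there is 1 line and no treatment. EP300 came as 2 peak lists, for replicates 1 and 2, each called against a control that had received no antibody, and H3K4me1 as 1 list for 2 replicates. The labels do not state whether the replicates were separate cultures, and their spread may be technical. A locus was shared when a peak of each replicate overlapped by at least 1 bp, and it runs from the outermost edge to the outermost edge of those peaks. Of 3573 shared loci, 433 (12.1%, exact 95% interval 11.1% to 13.2%) fell into 128 groups of at least 3, whereas 738 formed 369 pairs and 2402 stood alone. The members were thus chosen by the peak calls of both replicates and their positions, so the number and spacing of the groups are a description and not a finding. The lists carry no gene names, and the cell label was not checked against marker genes here.

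EP300 is a histone acetyltransferase and coactivator that DNA-binding transcription factors bring to enhancers and promoters, where it acetylates histones and other proteins. H3K4me1 marks the nucleosomes of enhancers, and the factor-bound stretch in the middle of an enhancer is usually depleted of nucleosomes and so of the mark. Genes that define a cell type are often served by several enhancers near each other, and such stretches may act together or carry 1 element on which the others depend. In melanocytes, enhancers of this kind are known for genes of pigment synthesis and for the transcription factors that direct the lineage. How tags divide among the loci of a group is therefore a basic property of such a stretch. Gene names are not used here, and groups are given by their position in the mouse build mm9.

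Most groups were small and compact. There were 95 groups of 3 loci, 24 of 4 and 7 of 5, and a single group each of 7 and of 10 loci. The median span from the first to the last edge was 21680 bp (quartiles 15943 bp and 29646 bp), and the groups ran from 4827 bp to 68987 bp. Neighbouring loci of a group lay a median of 6655 bp apart, with quartiles of 2819 bp and 12750 bp. At the limit of the rule, the widest gap within a group was 19957 bp and the narrowest gap that kept loci apart was 20006 bp. Of the 305 gaps, 34 were no wider than 1000 bp, in 31 groups, and the narrowest was 5 bp. With loci no more than 1000 bp apart joined to 1, there were 108 groups. The loci themselves filled a median of 21.4% of the span. Groups were found on every autosome, with 15 on chromosome 1, 12 on chromosome 4, 11 on chromosome 2 and 10 on chromosome 15, down to 2 each on chromosomes 14 and 19. None was on chromosome X. In 49 of the 128 groups (38.3%) the span also held a peak found in 1 replicate alone, 23 such peaks in replicate 1 and 41 in replicate 2.

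Clustered loci had slightly more tags and slightly higher enrichment at the median than other shared loci, with wide overlap. Tags are the sequenced ChIP fragments counted in a peak, with at most 2 kept at any position, and fold enrichment is the height of the peak summit over the local control. In replicate 1 clustered loci had a median of 74 tags (quartiles 53 and 106), against 63.5 tags (quartiles 47 and 90.3) at the 3140 other shared loci. In replicate 2 the medians were 84 tags (quartiles 61 and 124) at clustered loci and 71 tags (quartiles 52 and 102) at the others. The ranges between quartiles overlap in both replicates. The median fold enrichment was 7.73 at clustered and 7.29 at other loci in replicate 1, and 7.28 at clustered and 6.79 at other loci in replicate 2. In each replicate 182 of the 433 clustered loci (42.0%) lay below the median fold enrichment of the others. Clustered loci were also somewhat longer, with a median of 1365 bp against 1264 bp at the others. Loci in pairs, counted among the others, had medians of 68 tags and 7.54-fold enrichment in replicate 1 and 80 tags and 7.04-fold in replicate 2. Single loci had 63 tags and 7.23-fold in replicate 1 and 69 tags and 6.78-fold in replicate 2. Median lengths were 1317 bp in pairs and 1246.5 bp at single loci, so pairs lay between single and clustered loci on each measure. No test was made, because loci of the same libraries are not replicates. Per group, tags summed to a median of 254.5 in replicate 1 and 310 in replicate 2, and 97 of the 128 groups had more tags in replicate 2, from 31439027 filtered ChIP tags in replicate 1 and 32355042 in replicate 2. At clustered loci the summit of replicate 1 was a median of 67 bp from that of replicate 2, as at single loci (67 bp).

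**Figure D1:**
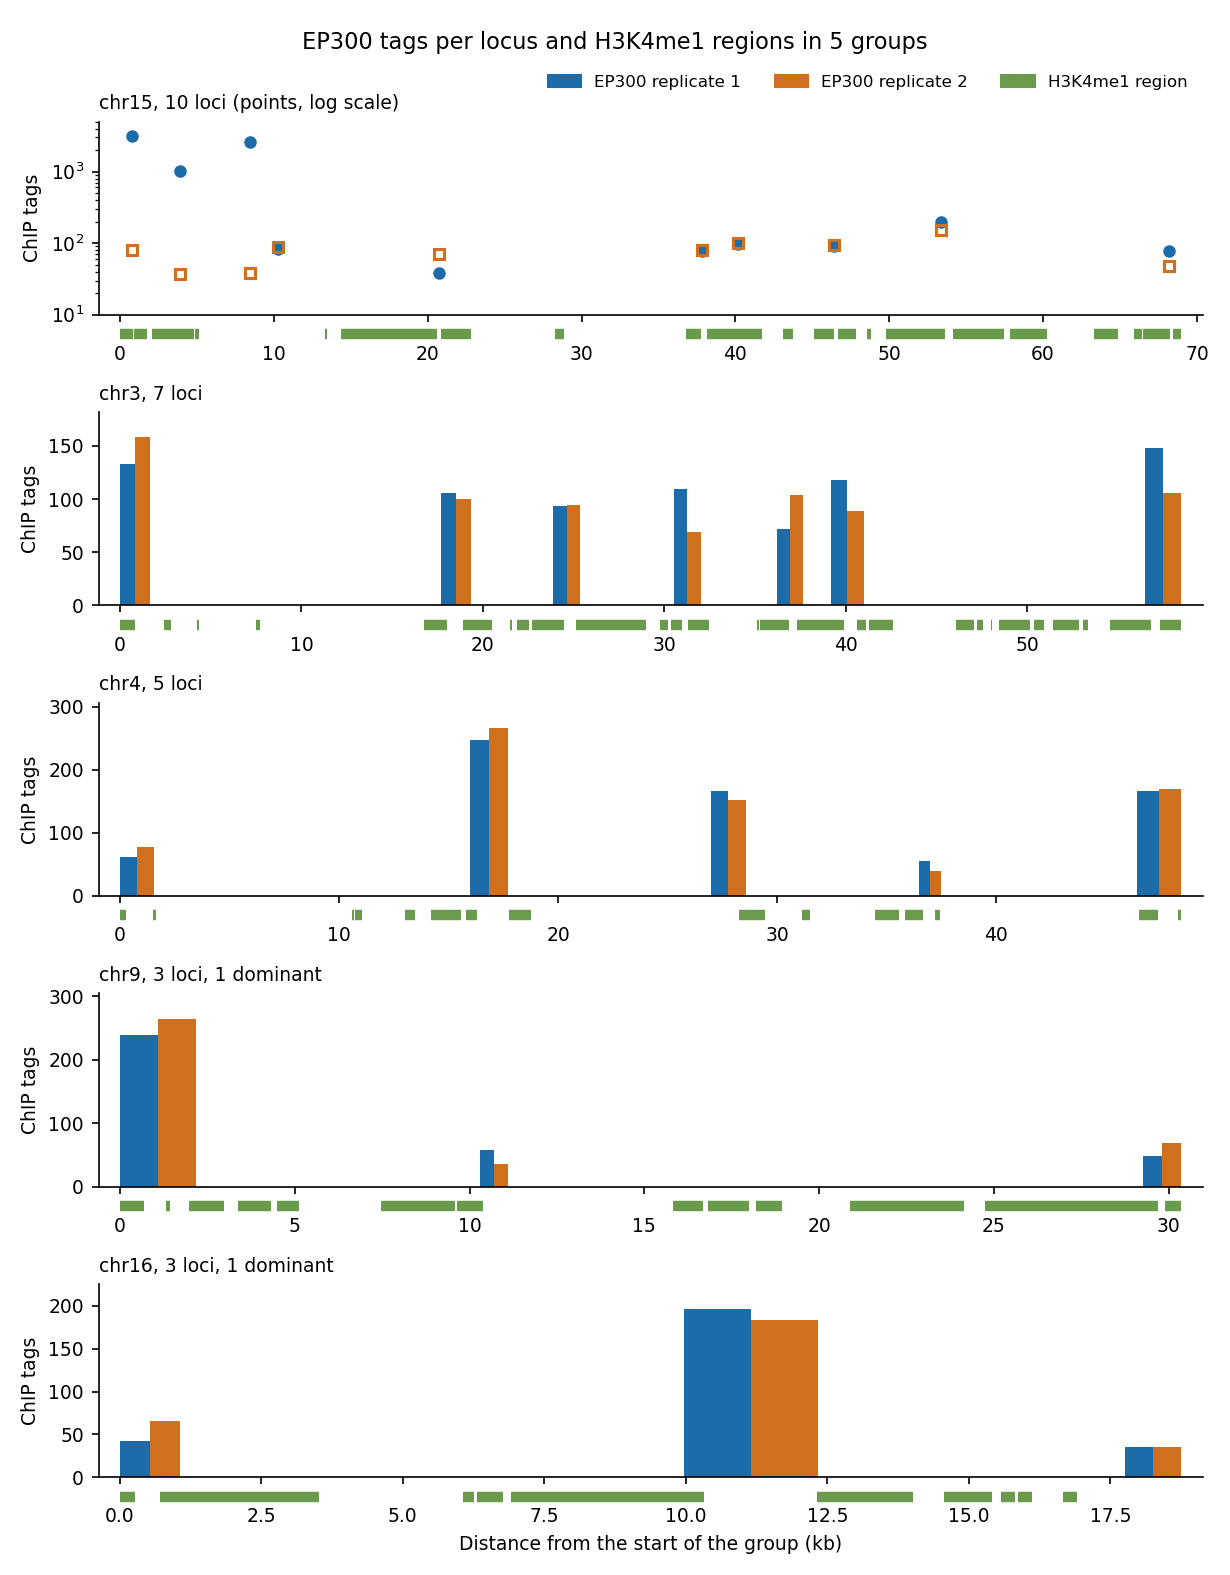
EP300 tags (vertical axis) of each locus in 5 groups, against distance from the start of the group in kb. Blue and orange stand for EP300 replicates 1 and 2, drawn as bars on the left and right part of each locus or, in the uppermost panel, as points on a log axis, and green blocks under each axis are H3K4me1 regions. In the group on chromosome 15 the first 3 loci have 1015 to 3164 tags in replicate 1 and 37 to 79 in replicate 2, whereas on chromosomes 9 and 16 the same locus stands out in both replicates.

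The 8 groups with most loci held 5 to 10 loci each and spanned 22631 bp to 68987 bp. The group of 7 loci on chromosome 3, from 79683273 to 79741757, had the lowest replicate 1 leading share of any group, 19.0%. Its loci had 133, 106, 93, 109, 72, 118 and 148 tags in replicate 1, in order along the chromosome. In replicate 2 they had 158, 100, 94, 69, 104, 89 and 106 tags. The locus with most tags was the last in replicate 1 but the first in replicate 2, and in replicate 2 the first locus had more tags than the last (exact binomial test, Benjamini-Hochberg adjusted p = 0.00373). H3K4me1 covered 47.8% of this span in 27 regions, the highest number of regions in any group. The next group along the chromosome, 4 loci from 79778731 to 79808137, began 36973 bp further on and had the most replicate 2 tags of any group, 922 (728 in replicate 1). It was also among the 6 groups that had another group within 100000 bp.

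Of the 6 groups of 5 loci among these 8, the one on chromosome 4, from 99142061 to 99190501, had the most tags and a clear rank order. Its second locus led in both replicates, with 247 tags in replicate 1 and 266 in replicate 2. Loci 3 and 5 followed with 166 and 167 tags in replicate 1 and 152 and 169 in replicate 2, and loci 1 and 4 had 55 to 61 tags in replicate 1 and 39 to 77 in replicate 2. The order of tags was 2, 5, 3, 1 and 4 by position in both replicates. On chromosome 10, from 120053290 to 120086654, replicate 1 had 159, 134, 74, 70 and 90 tags at the 5 loci and replicate 2 had 197, 223, 86, 132 and 135, so that the first 2 loci led in both but in opposite order. On chromosome 14, from 32472659 to 32495289, the 5 loci had 156, 50, 124, 105 and 90 tags in replicate 1 and 132, 103, 120, 134 and 61 in replicate 2. The second locus was the weakest of that group in replicate 1, and the fifth was the weakest in replicate 2. The remaining groups of 5 in this set were on chromosome 8, 129349159 to 129377278, on chromosome 2, 52808740 to 52862361, and on chromosome 4, 88658551 to 88708239, with 347 to 400 tags in replicate 1 and 328 to 482 in replicate 2.

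The largest group of all, 10 loci on chromosome 15 from 78985812 to 79054798, was the most unequal between replicates. Its first 3 loci had 3164, 1015 and 2620 tags in replicate 1 and 79, 37 and 38 in replicate 2. These are 40.1, 27.4 and 68.9 times as many tags in replicate 1, and among all 433 clustered loci no other ratio passed 8. The other 7 loci had 38 to 198 tags in replicate 1 and 48 to 152 in replicate 2, with ratios of 0.535 to 1.63. The step is abrupt: the third locus ends at 78995185 and the fourth, only 5 bp away, had 83 tags in replicate 1 and 87 in replicate 2. Fold enrichment at the first 3 loci was 21.8, 35.6 and 46.2 in replicate 1 and 6.14, 6.21 and 5.56 in replicate 2. At the third locus the summits of the replicates were 850 bp apart, against the median of 67 bp, and at the first and second 202 bp and 62 bp. These 3 loci took 91.1% of the 7460 tags of the group in replicate 1 and 19.6% of the 785 tags in replicate 2. Over all 3573 shared loci 5 had such a ratio, so 2 lay outside groups. The cause of the difference was not tested, and the 10 loci, the span of 68987 bp and the 7460 tags of this group rest in part on these 3 loci. Without them, 7 loci from 78995191 to 79054798 remained, with 661 tags in replicate 1 and 631 in replicate 2, led in both by the locus from 79037849 to 79040551.

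**Figure D2:**
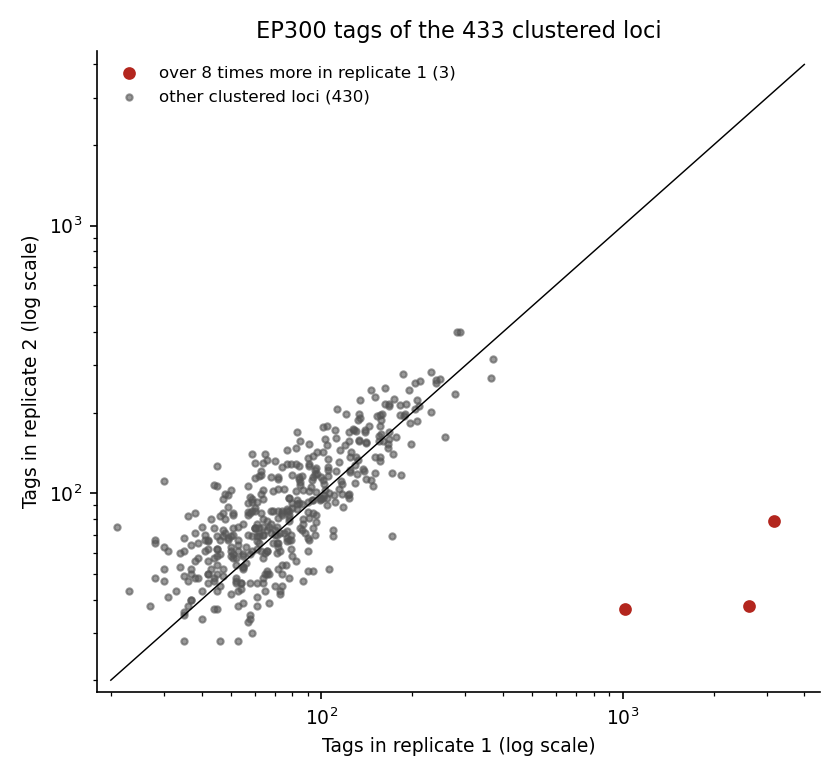
Tags of each of the 433 clustered loci in EP300 replicate 1 (horizontal axis) and replicate 2 (vertical axis), both on a log scale, with the line of equal tags. The 3 loci in red, all in the group on chromosome 15, lie far below the line, with 1015 to 3164 tags in replicate 1 and 37 to 79 in replicate 2, while the other 430 follow it.

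A single locus dominated only a minority of groups. To keep the choice of the leading locus apart from its measurement, the leader was taken as the locus with most tags in replicate 1, and its share of the tags of the group was measured in replicate 2. The leader was called dominant when this share was above 50%, so that it outweighed all other loci together, with an adjusted p under 0.05 in a two-sided exact binomial test on tags (Benjamini-Hochberg). The test covers counting error alone. The median share was 40.9% in replicate 2 (quartiles 34.3% and 48.3%) and 44.2% in replicate 1, where the leader had been chosen. The exact 95% interval of a share reached a median of 5.48 percentage points to either side. In 14 of 128 groups (10.9%) the leader was dominant, and in 79 (61.7%) its share was below 50% by the same test. In the remaining 35 groups neither was called at this depth. Of the 14, 13 were groups of 3 and 1 was a group of 4. With the roles of the replicates exchanged the count was again 14, and 8 groups were called both ways. Some called loci held less than 50% in replicate 1. They were in the groups of 3 on chromosome 5 at 145658924 (43.0%) and on chromosome 18 at 65125047 (44.5%). Tags per bp ask instead whether the leader exceeds its part of the length, and by that measure 59 of 128 groups (46.1%) were called. This limit is lower than 50% in most groups, and no share over loci outside groups is given beside it. The count is therefore not comparable with the 14 and is not read as a trait of groups.

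The same test was run on the shared loci outside groups, cut into 1040 consecutive triples along each chromosome regardless of distance. The leader was dominant in 143 of these triples (13.8%) and below 50% by the test in 497 (47.8%). Over groups and triples together, the family for the adjustment, 13.4% had a dominant and 49.3% a clearly smaller leader. The number of loci is matched in the 95 groups of exactly 3, where 13 (13.7%, interval 7.49% to 22.3%) had a dominant locus and 50 (52.6%) a leader below 50%. The median share was 42.5% in these groups and 43.1% in the triples. So 3 loci with neighbours within 20000 bp divided their tags about as unevenly, by the median share, as 3 consecutive loci taken at any distance. The share of dominated groups was near that background. The highest share was 72.0% in groups and 98.1% in triples. Tags were not matched in this comparison. Clustered loci had a median of 84 replicate 2 tags, against 71 at the other shared loci, and more tags make either call easier. Triples also hold loci of pairs, which lie within 20000 bp of each other. Each locus needs a called peak in both replicates, and the smallest peak of either list has 21 tags, which sets a floor under the weak loci and so a ceiling on the leading share.

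**Figure D3:**
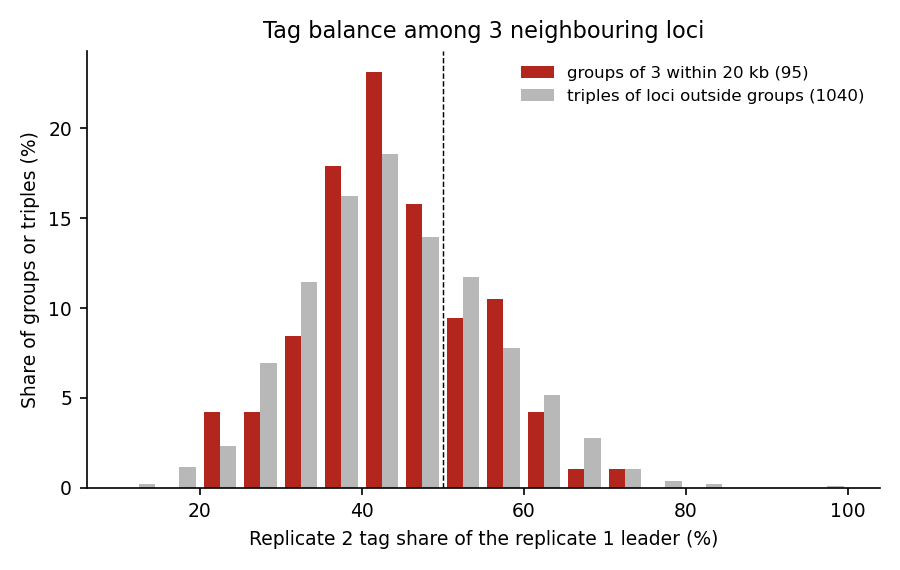
Share of replicate 2 tags held by the locus that leads in replicate 1 (horizontal axis, in percent), for the 95 groups of exactly 3 loci (red) and for 1040 consecutive triples of shared loci outside groups (grey), as a percentage of each set. Both have most of their members between 30% and 60%, with medians of 42.5% and 43.1%, and the dashed line marks 50%.

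Dominant loci were mostly long. In 13 of the 14 groups the dominant locus was the longest of its group, as was the leader in 74 of all 128 groups (57.8%), and tags were counted over the whole length of a locus. Its median fold enrichment was 13.0 in replicate 1 and 12.3 in replicate 2, while the leaders of the other 114 groups had medians of 10.6 and 9.31. The weakest locus of a dominated group had a median of 0.249 times the replicate 2 tags of its leader, against 0.521 times in the others. These values belong with the call and do not support it. The median span of dominated groups was 21184 bp, against 22075 bp in the others, and their median H3K4me1 coverage was 37.6% against 36.8%.

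The clearest case was on chromosome 9, from 32492518 to 32522879. Its 3 loci had 239, 58 and 49 tags in replicate 1 and 265, 35 and 68 in replicate 2. The first locus, 32492518 to 32494703, held 69.1% of the tags in replicate 1 and 72.0% in replicate 2 (interval 67.1% to 76.5%, exact binomial test with Benjamini-Hochberg adjusted p = 3.35e-16), with 33.2-fold and 26.7-fold enrichment. The pattern was 1 strong site at the edge followed by a pair of weak ones, in both replicates. On chromosome 18, from 31606248 to 31627826, the last locus had 364 of 444 tags in replicate 1 and 269 of 404 in replicate 2, a share of 82.0% and 66.6%. On chromosome 16, from 58501534 to 58520290, the middle locus had 196 of 273 tags in replicate 1 and 183 of 284 in replicate 2, a share of 71.8% and 64.4%. Next came a group on chromosome 18, from 70848767 to 70858494, with 62.0% and 61.8%, and a group on chromosome 12, from 103030931 to 103046487, with 55.6% and 61.7%. The group on chromosome 12 was not called with the replicates exchanged, whereas the others named here were. The dominant locus could thus be the first, the middle or the last of its group. Over all groups of 3, the leader was the left locus in 29, the middle one in 34 and the right one in 32.

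**Figure D4:**
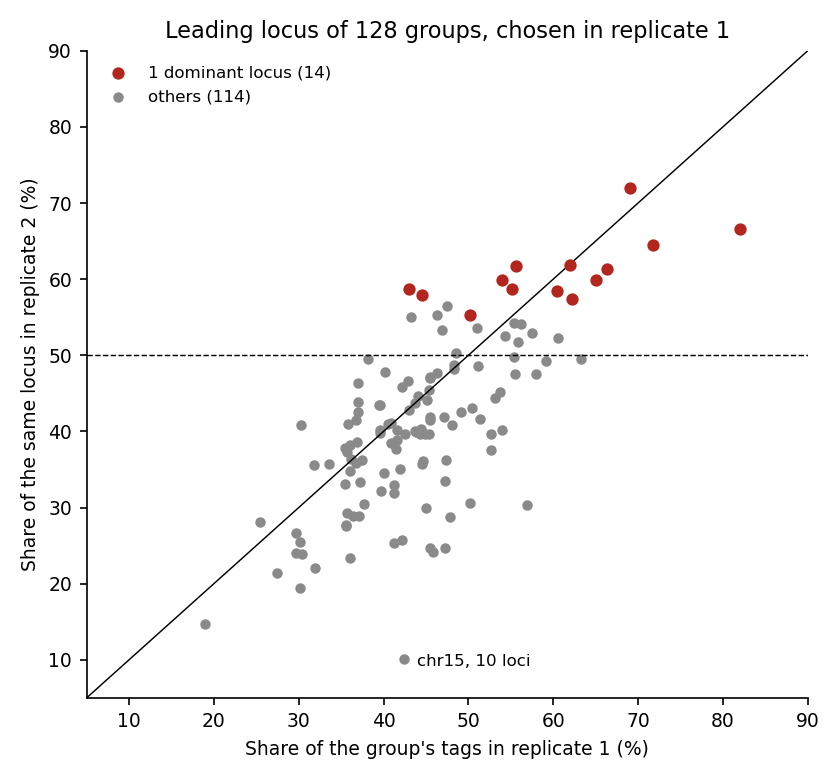
Share of the tags of a group held by its leading locus in replicate 1, where the leader was chosen (horizontal axis, percent), and share of the same locus in replicate 2 (vertical axis, percent), for 128 groups. The 14 groups with a dominant locus (red) lie above the dashed line at 50%, most groups lie between 30% and 50% in replicate 2, and the group of 10 on chromosome 15 falls to 10.1% in replicate 2, against 42.4% in replicate 1.

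At the other end were groups whose replicate 1 leader had a small share in replicate 2. In the group of 10 on chromosome 15 it had 10.1% of the replicate 2 tags, against 42.4% in replicate 1, and it is 1 of the 3 loci with far more tags in replicate 1. On chromosome 3 the leader of the group of 7 had 14.7%. The third lowest was a group of only 4 loci on chromosome 5, from 81687873 to 81711950, where the loci had 77, 60, 47 and 71 tags in replicate 1 and 66, 114, 95 and 65 in replicate 2. There the first locus led in replicate 1 but had 19.4% in replicate 2, behind loci 2 and 3. The groups of 5 on chromosome 4 at 88658551 and on chromosome 2 at 52808740 followed, with 21.3% and 22.1% in replicate 2. The same leaders had 27.4% and 31.95% in replicate 1, where they had been chosen as the highest. With the leader chosen in replicate 2 instead, its share in replicate 1 was 17% and 20%. A lower share in the other replicate can come with the choice, but how much of the drop it accounts for was not tested. In the group on chromosome 2 the share of this locus differed between replicates (Fisher's exact test, Benjamini-Hochberg adjusted p = 0.0136). In the group on chromosome 4 no such difference was called.

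In a milder form of dominance, the leader was compared with the second locus of replicate 1 alone. It had more replicate 2 tags than the runner-up in 59 of 128 groups (46.1%) by the exact binomial test with Benjamini-Hochberg adjusted p under 0.05, and fewer in 10. Among the 369 pairs the leader was called higher in 200 (54.2%), and over all 497 groups and pairs in 52.1%. The difference between groups and pairs was not tested. The same locus led in both replicates in 90 groups (70.3%, interval 61.6% to 78.1%) and another in 38. In the triples outside groups the leader was the same in 70.1%.

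A different division of tags in the replicates was called in a minority of groups. In 21 of 128 groups (16.4%) the share of the locus with most tags over both replicates differed between them (Fisher's exact test, Benjamini-Hochberg adjusted p under 0.05), as it did in 58 of 369 pairs (15.7%) and in 15.9% of all 497. The most extreme was the group of 10 on chromosome 15, with 42.4% in replicate 1 and 10.1% in replicate 2 (Fisher's exact test, adjusted p = 1.87e-79). Next came a group of 3 on chromosome 6, from 146883107 to 146909330, with 45.5% and 24.6% (Fisher's exact test, adjusted p = 2.99e-06). Its loci had 102, 103 and 171 tags in replicate 1 and 108, 103 and 69 in replicate 2, so that locus 3 had fewer tags in replicate 2 and the others did not. The dominated group on chromosome 18 at 31606248 was the next, although the same locus led in both. With the 3 loci of chromosome 15 left out, 7 loci of that group gave 29.95% and 24.1% (Fisher's exact test, adjusted p = 0.0968). Across the 128 groups, the leading shares in the replicates had a Pearson r of 0.721 and a Spearman rho of 0.674, given as a description, since groups of the same libraries are not independent samples.

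H3K4me1 was found in all groups, at a widely varying density. Every one of the 128 spans held H3K4me1, with a median of 8 regions (2 to 27). Among the shorter spans of pairs and single loci, 2 of 369 pairs (0.542%) and 258 of 2402 single loci (10.7%) held none. In groups the regions covered a median of 37.4% of the span (quartiles 25.7% and 51.5%, lowest 8.97%, highest 84.7%), whereas all 59923 regions together cover 2.02% of the effective genome size. In the stretches between loci alone the median was 33.1%, with a lowest value of 2.74% on chromosome 9 at 61198254. Pairs had medians of 33.2% in the span and 29.0% between loci. Flanks of the same length had medians of 11.5% on the left and 13.6% on the right. Coverage of the span was above that of both its flanks in 115 of 128 groups (89.8%), and in 287 of 369 pairs (77.8%). Since a group begins and ends at an EP300 locus, and nearly all of these have H3K4me1 beside them, some excess of the span over its flanks comes with the rule.

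In a window of fixed width, 21681 bp on the midpoint, H3K4me1 coverage had a median of 33.4% at groups (quartiles 22.9% and 45.7%), 22.4% at pairs (15.2% and 33.0%) and 10.8% at single loci (5.996% and 19.1%). By the rule, such a window holds more EP300 loci at a group than at a pair or a single locus, and nearly every locus has H3K4me1 beside it, so this order follows in part from how the members were chosen. Within 1000 bp of the centre of each locus the contrast was smaller, with a median of 62.5% at clustered loci, against 56.2% at loci in pairs and 50.1% at single loci. H3K4me1 lay within 1000 bp of the edges of 423 of 433 clustered loci (97.7%), against 3009 of the 3140 other shared loci (95.8%). Loci in pairs had the same share as clustered loci, 721 of 738 (97.7%), and single loci had 2288 of 2402 (95.3%). There is 1 H3K4me1 list and no replicate error, so these values are set side by side with no test.

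**Figure D5:**
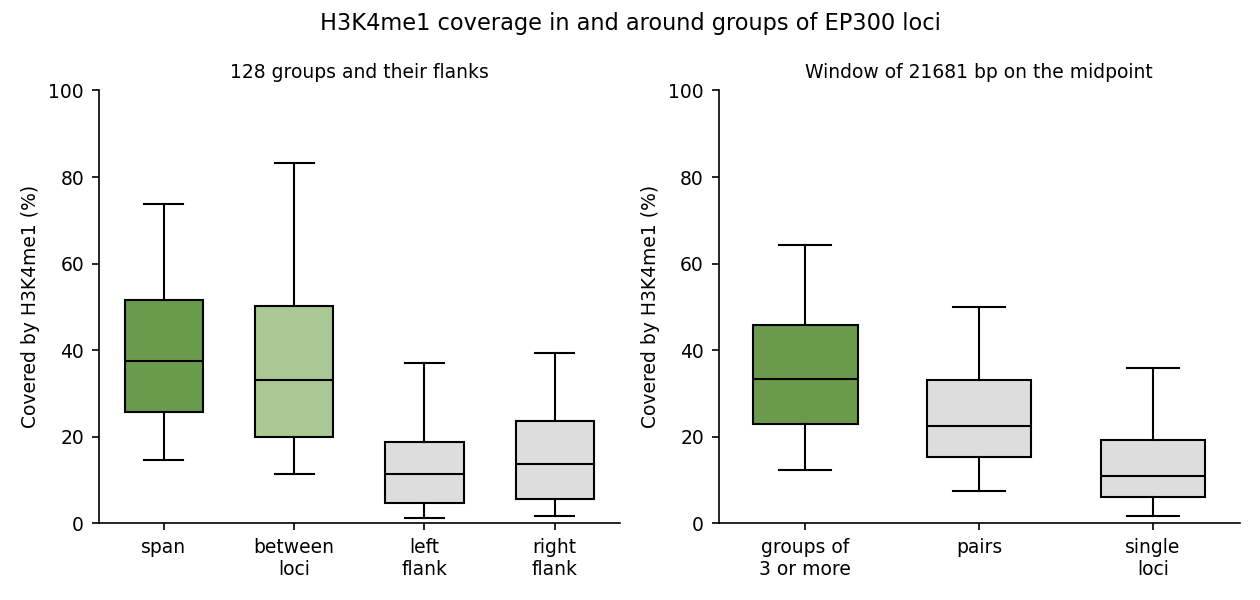
Percentage of sequence covered by H3K4me1 regions (vertical axes). Left, the spans of 128 groups, the stretches between their loci and flanks of the same length; right, a window of 21681 bp on the midpoint of groups, pairs and single loci. Boxes give quartiles and median and whiskers the 5th and 95th percentiles: the median is 37.4% in spans against 11.5% and 13.6% in flanks, and 33.4% at groups against 22.4% at pairs and 10.8% at single loci.

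At the median, regions in groups were longer and better ranked than the whole H3K4me1 list. The 128 spans add up to 3021888 bp, 0.158% of the effective genome size, and met 1145 regions, 1.91% of the list, with 2.92% of its covered length. Of the authors' 100 best-ranked regions, 15 met a group. The region ranked 2, on chromosome 14 from 32475950 to 32477499, lies in the group of 5 loci there and touches its loci 2 and 3. Ranks 5 and 24 are in 1 group of 4 on chromosome 19, from 10347804 to 10361617, and ranks 9 and 23 in the group of 10 on chromosome 15. The median region in a group was 900 bp long, against 500 bp for all regions of the list, and had rank 14624 of 59923 (quartiles 4624 and 31403). Loci in pairs and single loci also touched H3K4me1 in 92.8% and 89.3%, against 94.2% of clustered loci. Ranks of the regions at pairs and single loci are not given, so the ranks are not read as a trait of groups.

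Coverage varied widely among groups, also among groups with similar tags. The highest value, 84.7%, belonged to a group of 3 on chromosome 7, from 29708442 to 29741041, where loci of 46 to 72 tags in either replicate lie 13821 bp and 15219 bp apart in a span with 16 H3K4me1 regions. The group of 4 on chromosome 19 at 10347804 had 84.4% and a group of 3 on the same chromosome, from 9097049 to 9110200, had 81.8%. On the right flank of the first of these, coverage was 85.2%, so that the marked stretch ran on past the last EP300 locus. The lowest coverage, 8.97%, 9.38% and 12.2%, was found in groups of 3 on chromosome 16, from 86453991 to 86494965, chromosome 9, from 61198254 to 61219003, and chromosome 10, from 122284605 to 122321942. In the group on chromosome 16 the loci had 53, 44 and 47 tags in replicate 1 and 75, 37 and 69 in replicate 2, about as many as in the best covered group on chromosome 7. Across the 128 groups, coverage had a Spearman rho of 0.507 with the part of the span filled by EP300 loci (Pearson r 0.548), -0.316 with the span (Pearson r -0.274) and 0.187 with the replicate 2 tags (Pearson r 0.126). These are descriptions over groups of the same libraries, and H3K4me1 lies beside nearly every locus, so that coverage and spacing are linked by position.

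Over all groups, H3K4me1 around the EP300 leader was at the median close to that around the other loci of its group. Coverage within 1000 bp of its centre had a median of 60.0%, against 60.1% for the mean of the other loci of the group. In the 14 dominated groups the medians were 50.0% at the leader (quartiles 42.1% and 60.0%) and 60.3% at the others (quartiles 47.3% and 71.9%). In the other 114 groups they were 60.7% and 60.1%. These differences were not tested. The leader had the highest coverage of its group, ties included, in 32 of 128 groups (25%), in 3 of the 14 dominated groups and in 163 of 369 pairs (44.2%). With 3 or more loci to a group and 2 to a pair, these counts are a description, with nothing read from them about leaders. On chromosome 16 at 58501534 the dominant middle locus had 5.597% coverage around its centre, and the weak loci beside it had 77.5% and 0%. On chromosome 9 at 32492518 the dominant locus had 41.9%, and the others 29.99% and 90.01%.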

How the data were processed

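Each EP300 replicate was called by the authors against a control of its own with MACS 1.4.1 20110627 at a p-value limit of 1e-05, per the file headers. The deposited lists give, per the file headers, tag counts, fold enrichment (a ratio to the local control), a significance score (minus 10 times the log10 p-value) and a false discovery percent. The H3K4me1 list was deposited by the authors with a rank, a score and a maximum log2 fold change per region. Its caller, its depth, how 2 replicates were joined and the aligner: not given in the sources used here. The build is mm9, per the submitters' processing notes, and the reference tables, of another build, were not used.

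Peaks were merged to shared loci and groups, and tags of a locus were summed over its peaks. Binomial and Fisher's exact tests (SciPy 1.17.1, Python 3.11.15) were adjusted over all groups and triples, or all groups and pairs. The grouping and the binomial call of a dominant locus were checked on simulated data. There the tags were drawn at fixed shares with counting error alone, and the adjustment ran over the groups without the triples. The runner-up test and Fisher's exact test were not simulated. Intervals are Clopper-Pearson at 95% and cover counting error only. The members, rules and tests were chosen with earlier results of these data known. Named groups are the 8 with most loci (ties by tags), the 5 highest and 5 lowest leading shares, the 3 longest spans, the 3 highest and 3 lowest H3K4me1 coverages and those with a locus over 8 times stronger in 1 replicate. The second group of chromosome 3, the group on chromosome 6 and the positions of high-ranked H3K4me1 regions were picked after their values were seen.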

Additional observations from a re-analysis of the deposited data

How the results depend on the processing

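Of 102 values under 13 planned and 2 added settings, 51 kept the main value within its limits and 51 moved. Counts were judged by a fixed ratio to the main count, also where the number of groups changed. With neighbours within 10000 bp, 62 groups above both flanks counted as moved from 115, though these were 91.2% and 89.8% of groups. For the leading share the limit was the standard deviation, 0.322 percentage points, of the main value and the value with replicates exchanged. The exchanged value could only count as moved. The number moved thus does not measure stability. Only the difference in median fold enrichment between clustered and other loci could turn round, since the rest are counts, shares or sizes. It kept its sign in each setting where it was computed. With neighbours within 10000 bp there were 68 groups of 219 loci, with a median span of 15230 bp and coverage of 44.2%. The leader was the same in 44, dominant in 9 and above the runner-up in 32, the balance differed in 13, coverage was above both flanks in 62, and the median fold enrichment of clustered loci was 0.53 above that of the other loci (0.465 at 20000 bp, mean of both replicates). With neighbours within 50000 bp there were 233 groups of 880 loci, with a median span of 48086 bp, leading share of 38.2% and coverage of 21.9%; the same counts were 155, 22, 116, 48 and 203, and the enrichment difference 0.3225. Dominated groups were 13.2% of groups at 10000 bp and 9.44% at 50000 bp. No share over triples is given at these limits, and the limit also changes how many loci a group holds. Nothing is therefore read from these shares about spacing. With the upper 50% of each EP300 list there were 66 groups of 221 loci, the leading share was 40.2% (40.15%), the same counts were 45, 8, 28, 13 and 60, and the enrichment difference 0.245. With loci within 1000 bp joined, the leading share was 41.7% and the enrichment difference 0.505.

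The median leading share was 41.3% with the leader chosen in replicate 2, 37.6% by fold enrichment, 37.7% per bp and 42.8% with background tags taken off. Per bp, 59 groups were called against the leader's part of the length and not against 50%, with no share over triples beside it. Coverage was 32.5% with the upper 50% of H3K4me1 regions and 33.1% between loci. Without either replicate in turn there were 349 to 482 groups of 1260 to 1765 loci, with coverage of 28.3% to 28.4%. Coverage was above both flanks in 290 to 402 groups, and enrichment differences were 0.39 to 0.59. The leading shares, 42.55% to 42.62%, were chosen and measured in the same list. Their like in the main setting is the replicate 1 share of 44.2% and not the 40.9% measured in replicate 2. The cause of these moves was not tested, except that 1 list alone has more peaks than both share. Taking off background and leaving out the chromosome 15 group were chosen after seeing the data; without that group 14 dominant groups and 19 with a different balance were called.

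The tests on the leader were not run without a replicate, since it would be chosen and measured in the same list. No paired analysis was possible because the EP300 lists are 2 replicates of 1 group. Weak loci near the lowest count of 21 tags limit the precision of the shares, and H3K4me1 has no replicate error.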
